A study of Mus musculus with 10 samples.

Results

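The chromatin of mouse embryonic stem cell cultures was compared between the 2 ends of an untreated differentiation series, day 7 (D7) and day 2 (D2), by ATAC-seq, an assay in which a transposase inserts sequencing adapters into open chromatin. The comparison took all 246799 regions obtained by merging the deposited peak lists, which is every merged region of the series, and 4 of its 10 libraries: 2 of D2 and 2 of D7 without Gdf11. The 4 libraries of D3 and D6 lie between them and served to split each change into the part reached at D3, at D6 and at D7. All cells were of ES-Bruce4, a C57BL/6 stem cell line labelled wild type, kept on inactivated mouse embryo fibroblasts in serum with LIF and depleted of these feeders once. They were then grown in N2B27 medium with 10 ng/ml bFgf from D0, with 5 µM CHIR99021 added from D2. CHIR99021 inhibits the kinase GSK3 and so activates Wnt signalling. The D2 libraries are labelled as epiblast stem cells and those of D3, D6 and D7 as neuromesodermal progenitors. The cultures were split on D3, and 50000 cells went into each library. The remaining 2 libraries, D7 cells given 50 ng/ml Gdf11 for 24 h, entered only the shared estimate of spread. Whether the 2 libraries of one day came from separate cultures is not stated, so p-values measure the spread between these libraries. One cell line is a limited model, and a bulk library cannot tell a region opening in every cell from a larger share of cells in which it is open.

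Neuromesodermal progenitors are cells of the caudal epiblast and tailbud that give rise to spinal cord and paraxial mesoderm. Wnt and Fgf signals hold them in that state, and Cdx factors with successive Hox genes give them their position along the trunk. Epiblast cells that enter this path close enhancers bound by Oct4 and Sox2 and lose E-cadherin, while retinoic acid, made by neighbouring mesoderm, promotes neural fate.

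Counts summed over all regions were 9187351 and 7628516 in the D2 libraries and 11576260 and 7501320 in those of D7, with 9.25 to 13.42% of counts on the mitochondrial chromosome across the 10 libraries. Regions without a single count made up 9.8 and 10.8% of the D2 libraries, and 3.9 and 9.4% of the D7 libraries. The number of deposited peaks was 118603 and 98118 at D2 and 117023 and 87550 at D7. Levels are given as CPM, the usual count per library size, with library sizes scaled by edgeR's TMM factors. A change is called when the adjusted p of edgeR's quasi-likelihood test (Benjamini-Hochberg over all features tested) is under 0.05, and all adjusted p below are of this kind. For gene sums, the counts of all regions nearest to a protein-coding gene and within 50 kb of it were added.

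A few promoters show the kinds of change that are counted below. They are printed from RefSeq (GRCm38.p6, the mm10 build), with the 250 bases before the gene's start, the gene's own strand from 5′ to 3′. Capitals mark any of 4 short letter strings looked for on both strands: CTTTGAT (the core of LEF and TCF factor motifs), CATAAA (the core shared by CDX and HOX motifs), ATTTGCAT (the octamer of POU factors) and CCATTGT (the core of SOX motifs). The first 2 promoters opened and the third closed.
Hoxd4, chr2:74721728-74721977, plus strand: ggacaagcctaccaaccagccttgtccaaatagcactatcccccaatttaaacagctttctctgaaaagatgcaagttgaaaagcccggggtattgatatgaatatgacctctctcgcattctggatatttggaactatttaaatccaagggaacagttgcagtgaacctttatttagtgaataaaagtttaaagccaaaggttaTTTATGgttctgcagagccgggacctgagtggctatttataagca
Hes5, chr4:154960673-154960922, plus strand: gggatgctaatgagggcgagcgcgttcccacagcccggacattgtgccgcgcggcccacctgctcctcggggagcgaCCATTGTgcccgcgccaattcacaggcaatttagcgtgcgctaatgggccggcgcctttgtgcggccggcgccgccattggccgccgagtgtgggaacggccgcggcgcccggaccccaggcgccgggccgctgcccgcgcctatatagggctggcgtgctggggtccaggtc
L1td1, chr4:98726504-98726753, plus strand: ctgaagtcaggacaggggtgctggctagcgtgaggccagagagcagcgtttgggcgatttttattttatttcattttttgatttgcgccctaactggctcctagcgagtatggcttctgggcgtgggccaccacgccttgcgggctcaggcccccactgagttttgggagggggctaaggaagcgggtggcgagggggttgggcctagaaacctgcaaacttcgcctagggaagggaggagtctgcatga

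The Hoxd4 promoter holds CATAAA on the opposite strand at bases 206 to 211 of the window, and again at bases 272 to 277, after the start. The region over it measured 0.216 and 0.135 CPM in the D2 libraries, 3.68 and 3.13 at D3, 8.99 and 5.08 at D6, and 10.5 and 13.4 at D7 (adjusted p = 2.5e-14). The D2 values are 2 and 1 counts, so no fold is given, and every later library lies above both. Over the promoter of Hes5, a Notch effector of neural progenitors with CCATTGT at bases 78 to 84, the libraries gave 11.3 and 19.8 CPM at D2, 9.21 and 15.1 at D3, 22.7 and 26.6 at D6, and 34.1 and 29.7 at D7. This is a log2 change of 1.05 ± 0.21 (SE from the fit of all 10 libraries, 2 a group, adjusted p = 6.5e-05), and the days D2 and D7 do not overlap. The promoter of L1td1, an RNA-binding protein gene of pluripotent cells, holds none of the 4 strings. Its region fell from 19.8 and 23.3 CPM at D2 through 14.9 and 11.5 at D3 and 5.85 and 3.39 at D6 to 4.18 and 3.35 at D7, a log2 change of -2.49 ± 0.28 (adjusted p = 6.04e-11). Among the promoters chosen by the same rule but not printed, that of Hoxa3 shared only 65 bases with its region, at the end away from the start. This region had no count in either D2 library and 11.9 and 13.7 CPM at D7. It was at least 35.1-fold higher when D2 is set to a floor of 3 counts per library.

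The letter strings were rare in promoters of every set, and their shares were not tested. CATAAA stood in 11.9% of all 32851 promoter windows of 300 bases, in 6.2% of the 16552 that a tested region overlaps, in 7.6% of the 4567 windows whose region rose, in 5.0% of the 2421 whose region fell and in 5.9% of the 9564 not called. Within the risen promoters it stood in 6.9% of those with their largest step from D2 to D3, 10.1% from D3 to D6 and 6.1% from D6 to D7. The octamer stood in 1.3% of the risen and 2.4% of the fallen windows against 1.5% of all windows that a tested region overlaps. On the same base CTTTGAT stood in 3.3 and 2.6% against 2.7%, and CCATTGT in 2.4 and 2.1% against 2.3%. These are counts of letters, not of bound sites.

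More of the tested regions opened than closed over the full span. Of 173175 regions with enough counts to test, 65338 differed between D7 and D2 (37.7% of those tested). Of these, 38074 were higher at D7 (22.0%) and 27264 lower (15.7%). Opening was also larger: the median log2 change was 2.47 among the regions higher at D7 and -1.85 among those lower, or 2.35 and -1.84 when the 1881 and 218 regions without counts on their low side are set to the floor of 3 counts per library. A fitted change of at least 4-fold was found in 24469 regions that rose (14.1% of the tested) and 11559 that fell (6.67%), or 23305 and 11418 on that floor. The same libraries made the calls and gave these sizes, which favours large changes. When regions were called with 1 library of each end, the median rise was 3.22 and 3.14 in the calling libraries. In the other libraries it was 2.51 and 2.42. The median fall was -2.37 and -2.2 in the calling libraries and -1.7 in both sets of others. The direction split depends on the scaling. Higher regions were 58.3% of the called with TMM factors, 51.6% with library size only, and 51.1% under cyclic loess. The median over all regions moved only from 0.10 to -0.03. Regions were merged from the peaks of all 10 libraries and filtered on the counts of all of them. With only the D2 and D7 libraries in the filter and the fit, 127257 regions were tested and 55.2% of the called were higher. The 2 libraries of D7 did not overlap those of D2 in 68.9% of all tested regions.

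The deposited peaks were called on the same reads and the regions were built from them, so they describe these calls and do not test them. Among the risen regions, 71.8% had no peak in either D2 library and 70.0% had one in both D7 libraries, and both held for 16012 of them (42.1%). Among the fallen regions, 87.1% had a peak in both D2 libraries and 55.7% in neither D7 library, and both held for 11714 (43.0%). Of the regions not called, 34.9% had no peak at D2 and 42.7% none at D7. The share of risen regions with a peak climbed from 26.5 and 22.5% in the D2 libraries to 44.9 and 37.5% at D3, 75.6 and 59.8% at D6, and 87.7 and 75% at D7. On every day the first library, which is the deeper one, had the larger share. The share of fallen regions with a peak dropped from 96.1 and 90.3% at D2 to 70.5 and 61.2% at D3 and 45.8 and 35.2% at D6, and stood at 41.1 and 30.1% at D7. The plot of peaks by library shows both courses.

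**Figure D1:**
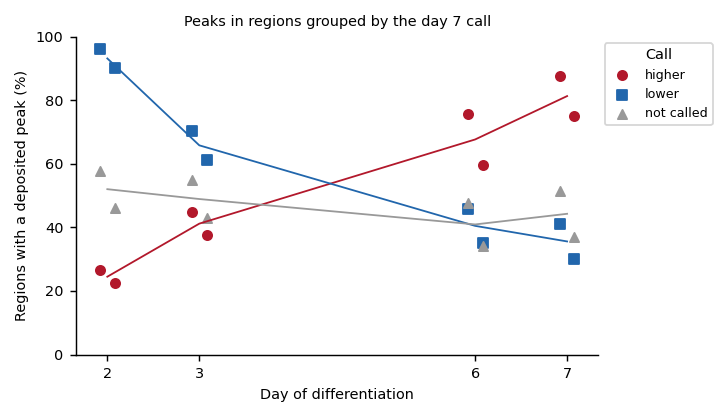
Share of regions with a deposited peak (vertical axis, percent) in each library (points) by day of differentiation (horizontal axis), for regions higher, lower or not called at D7 against D2; lines join the means of the 2 libraries. Regions higher at D7 climb from 26.5 and 22.5% at D2 to 87.7 and 75% at D7, while regions not called stay between the other sets at D2.

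Most of the span was covered by D6. On the log2 scale the 3 fitted steps of a region add up to its whole change. Regions higher at D7 had reached a median of 45.7% of their change at D3 and 87.3% at D6. For regions lower at D7 these values were 38.7% and 75.5%. The median parts of the 3 steps were 45.7, 39.3 and 12.7% of the rise, and 38.7, 35.4 and 24.5% of the fall. The largest step was D2 to D3 for 18566 of the risen regions, D3 to D6 for 15839 and D6 to D7 for 3669. For the fallen regions it was D2 to D3 in 10659, D3 to D6 in 10654 and D6 to D7 in 5951. The steps span 1, 3 and 1 days, so they are not rates. The D2 and D7 libraries set both the call and the first and last step, which favours those steps. When regions were called with 1 library of each end and measured with the other, the parts were 43.1 to 43.3, 42.2 to 43.3 and 11.0 to 11.1% of the rise, and 35.8 to 41.6, 40.0 to 40.4 and 15.9 to 21.8% of the fall. In those held-out libraries 96.4 to 97.9% of the regions moved in the direction of the call. The D6 to D7 part of the fall rests partly on one library and came to 36.8% without replicate 1 of D7. With library size only, the last part of the rise was 7.7%.

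Single steps were called far less often than the whole. From D2 to D3, 22833 regions changed (13.2%), with 8.84% of the tested higher and 4.34% lower. From D3 to D6 26378 changed (15.2%), with 9.17% higher and 6.06% lower. From D6 to D7 only 2045 changed (1.18%), with 0.975% higher and 0.206% lower. Of the risen regions, 27.5% were also called higher from D2 to D3, 34.9% from D3 to D6 and 4.1% from D6 to D7, and 44.56% were called in none of the steps. Of the fallen regions, 21.4, 22.7 and 0.6% were called lower in the 3 steps and 59.36% in none. Step and whole share libraries, so these shares are the split itself and not a second test. A rise above the D7 level at D3 was seen in 3650 risen regions (9.6%), and 399 (1.05%) were called higher from D2 to D3, lower from D3 to D6 and not from D6 to D7. The counts of steps moved with single libraries. The count for D6 to D7 was 685 without replicate 2 of D7, 686 and 1226 without replicates 2 and 1 of D6, and 3198 and 3096 without replicates 1 and 2 of D2. That for D2 to D3 was 14483 without replicate 1 of D2 and 14556 without replicate 1 of D3. That for D3 to D6 was 17475 without replicate 1 of D3 and 14597 without replicate 1 of D6.

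Promoter regions called higher opened by less than other regions called higher, and more of them had their largest step last. Of 14111 tested regions over a promoter window, 25.2% were higher at D7, against 22.0% of 78500 other regions inside genes and 21.5% of 80374 outside genes. Among the latter, the 35486 farther than 50 kb from a gene were higher in 26.5%. The risen promoter regions had a median log2 change of 0.63, against 2.55 inside and 2.68 outside genes. The largest step was D6 to D7 for 21.4% of the risen promoter regions, but for 8.5% inside and 8.3% outside genes. The middle step was the largest for 27.4% of them, against 43.4 and 42.8%, and the first for 51.1%, against 48.1 and 48.9%. Promoter regions made up 20.7% of the risen regions whose largest step was the last, 9.8% of those with the first and 6.1% of those with the middle step. The promoters that fell showed no such shift, with 18.1% in the last step against 23.0% inside and 21.5% outside genes. No test was made of these shares, because regions of the same library are not independent samples. The split by position was made with TMM factors only. With library size only, the last part of the rise over all risen regions was 7.7% instead of 12.7%. Risen regions with the largest step last had a median of 4.95 CPM, against 2.79 for the first and 2.89 for the middle step. The sizes are of called regions only, and a region with more counts can be called at a smaller change. The part of scaling and of abundance in these shares and sizes was not tested. Regions farther than 50 kb from any protein-coding gene were 25% of the risen, 22.2% of the fallen and 18.9% of the uncalled regions. With regions over promoter windows left out, those of the risen set had a median log2 change of 2.82.

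**Figure D2:**
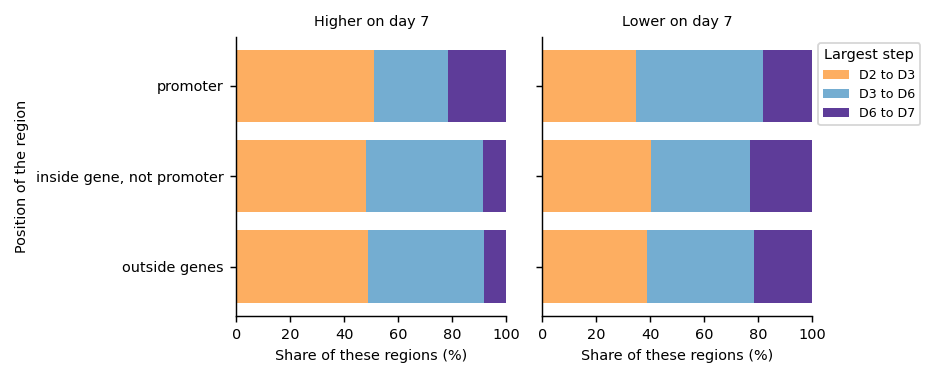
Share of regions (horizontal axis, percent) whose largest step was D2 to D3, D3 to D6 or D6 to D7, by position of the region (vertical axis), for regions higher (left) and lower (right) at D7 than at D2. Among the risen regions the last step is the largest for 21.4% over promoters but 8.3 to 8.5% elsewhere.

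The regions with the smallest p for each direction and largest step lay inside or far from genes, and none of the 18 overlapped a promoter window. All coordinates are mm10. The region chr13:72209907-72210844, 246184 bp from Irx1, a homeobox gene of neural patterning, had its largest step first. It measured 2.81 and 4.32 CPM at D2, 46.7 and 47.0 at D3, 93.7 and 86.9 at D6, and 121 and 131 at D7, a log2 change of 5.16 ± 0.19 (adjusted p = 3.79e-29). Every later day lies above D2 without overlap, and each day is above the one before. A region inside Col14a1, a collagen gene, at chr15:55440681-55441454 was at 1.73 and 1.75 CPM at D2, 14.8 and 14 at D3, 48.7 and 48.2 at D6, and 83.8 and 91.9 at D7 (log2 5.65 ± 0.23, adjusted p = 8.04e-28).

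Among regions that opened mostly from D3 to D6, chr1:177561715-177562817, 110951 bp from the zinc finger gene Zbtb18, changed most of the 3 named by the rule, with a log2 change of 5.91 ± 0.24 (adjusted p = 2.76e-27). It rose from 1.3 and 1.48 CPM at D2 to 2.89 and 2.69 at D3, a step that was called (log2 1.02, adjusted p = 0.0369). It then reached 28.4 and 22.3 at D6 and 74.5 and 93.5 at D7. A region at chr13:60146807-60148076, 26329 bp from Gas1, a Hedgehog co-receptor gene, had reached 29.9% of its change by D3, against 17.2% near Zbtb18. It went from 3.99 and 4.45 CPM at D2 and 11.4 and 9.55 at D3 to 44.4 and 47.6 at D6 and 83.4 and 101 at D7 (log2 4.45 ± 0.20, adjusted p = 4.68e-26). Of those with the largest step last, chr12:12693861-12694648, 241445 bp from the proto-oncogene Mycn, held 8.53 and 9.31 CPM at D2, 14.6 and 21.5 at D3, 33.7 and 32.6 at D6, and 67.3 and 75.9 at D7 (log2 3.00 ± 0.19, adjusted p = 6.8e-20). In the regions near Zbtb18 and Gas1 the 4 levels of D6 and D7 lie above every earlier one, and near Mycn each day lies above the one before.

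Closing regions differed in their course. At chr3:96680269-96681050, inside Ankrd35, the libraries gave 66.2 and 70.3 CPM at D2, 12.6 and 12.8 at D3, 3.71 and 5.65 at D6, and 2.97 and 3.5 at D7 (log2 -4.41 ± 0.25, adjusted p = 3.29e-22). A region inside the corepressor gene Ctbp2, chr7:133114755-133115466, kept 41.1 and 41.2 CPM at D3 of 65.8 and 67.1 at D2 and then fell to 11.8 and 11.7 at D6 and 8.92 and 6.69 at D7 (log2 -3.06 ± 0.19, adjusted p = 3.08e-20). The deepest of the closing regions named by the rule was chr9:49935729-49936559, 136336 bp from the cell adhesion gene Ncam1, with 33.8 and 36.0 CPM at D2 and 1.21 and 1.82 at D7 (log2 -4.57 ± 0.30, adjusted p = 4.97e-19). Ncam1 itself rose in its gene sum (log2 0.88), so this region and the sum around the gene moved in opposite directions. A region inside Anks1b, chr10:90809826-90810229, measured 20.4 and 17.5 CPM at D2, 5.79 and 5.82 at D3, 4.04 and 4.52 at D6, and 0.93 and 1.52 at D7 (log2 -4.01 ± 0.35, adjusted p = 1.39e-14). Its first drop (log2 -1.71 ± 0.27) and its last (-1.85 ± 0.39) were within their errors of each other.

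Summed by gene, 9956 of 19037 genes differed (52.3%), 5613 higher (29.5%) and 4343 lower (22.8%), with a median log2 change of 0.06 over all genes. With library size only the higher genes were 42.6% of the called instead of 56.4%, and the median of all genes was -0.07 instead of 0.06. Changes of at least 2-fold were more often losses, in 1877 genes (9.86%) against 920 (4.83%). The 2 days did not overlap in 75.6% of genes. In the steps, 4325 genes changed from D2 to D3 (22.7%), 3851 from D3 to D6 (20.2%) and 815 from D6 to D7 (4.28%). Of all genes, 12.3, 9.41 and 3.61% rose and 10.4, 10.8 and 0.672% fell in these steps. The gene lists below are described by their counts against these shares.

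**Figure D3:**
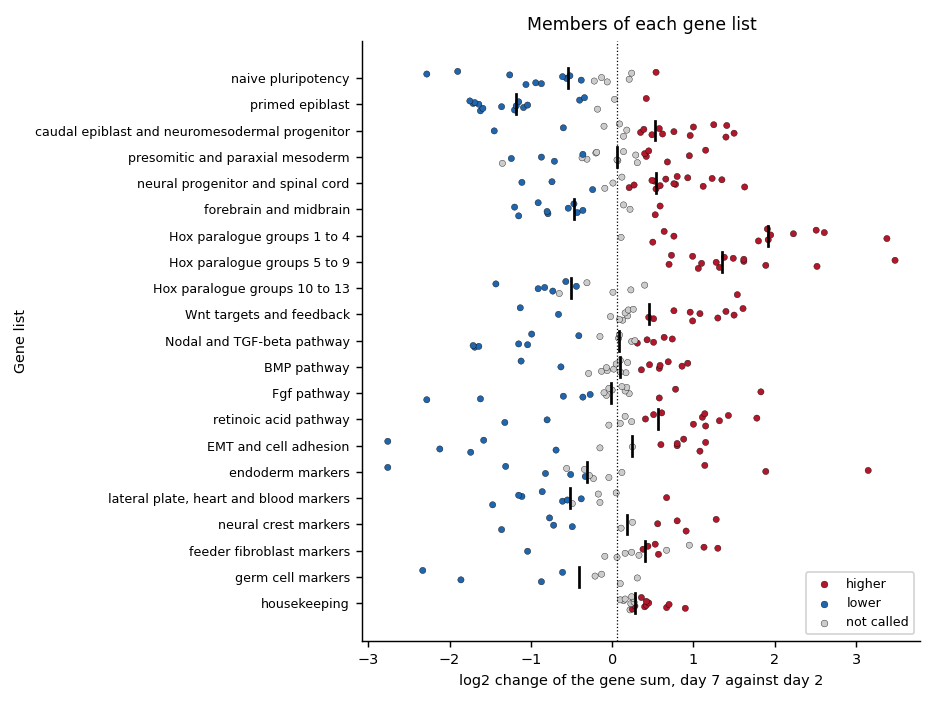
Log2 change of the gene sum, D7 against D2 (horizontal axis), of every tested member (points) of each gene list (vertical axis), coloured by call; black bars are list medians and the dotted line is the median of all genes, 0.06. The Hox groups 1 to 9 lie to the right and the primed epiblast genes to the left.

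Most anterior and trunk Hox genes gained accessibility over the span, though not all in the same step. Hox genes encode the homeodomain factors that set segment identity along the body axis, and are numbered by their position within 4 clusters. Of the 12 genes of paralogue groups 1 to 4, 11 rose, none fell, and the median log2 change was 1.92. All 14 tested genes of groups 5 to 9 rose, with a median of 1.35, and Hoxa6 was not tested because no region was assigned to it. Of the 12 genes of groups 10 to 13, 1 rose and 6 fell, with a median of -0.50. The lower count was 3 without replicate 1 of D7, where Hoxc12, Hoxc13 and Hoxd13 no longer passed (adjusted p = 0.0577, 0.0518 and 0.0946). Hoxd9 also missed without that library (0.108), and Hoxb6 without replicate 2 of D7 (0.0691). Neighbouring Hox genes overlap and share regions, and each region was given to one gene only, so members of a cluster are not independent.

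Hoxc5 changed most, with 7.02 and 7.96 CPM at D2, 33.3 and 34.2 at D3, 45.4 and 51.8 at D6, and 77.6 and 89.6 at D7 in its single tested region (log2 3.48 ± 0.16, adjusted p = 1.16e-19). Hoxa4 rose from 6.8 and 4.86 CPM at D2 to 39.1 and 31.5 at D3, and after 36.2 and 43.8 at D6 reached 61.4 and 61.6 at D7 (log2 3.38 ± 0.18, adjusted p = 1.84e-17). Both days stand clear of D2, and for Hoxa4 76.7% of the change was reached by D3. Hoxc4 (log2 2.61), Hoxa9 (2.52), Hoxd3 (2.51), Hoxb4 (2.23), Hoxb3 (1.95) and Hoxa3 (1.92) also had their largest step from D2 to D3.

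Other Hox genes moved late or returned in part. Hoxa2, an anterior gene of the hindbrain, stood at 8.53 and 10.1 CPM at D2 and at 11.8 and 7.76 at D3, then at 18.1 and 15.8 at D6 and 31.3 and 33.6 at D7 (log2 1.80 ± 0.19, adjusted p = 1.02e-09). Hoxb2, Hoxa5 and Hoxd8 also had their largest step from D6 to D7, and in that step 7 of the groups 1 to 4 and 5 of the groups 5 to 9 rose. Hoxb8 peaked at D3, with 54.9 and 58.5 CPM against 11.9 and 22.0 at D2, fell from D3 to D6 and was at 36.4 and 45.3 at D7 (log2 1.28 ± 0.19 over the span, adjusted p = 5.49e-07). Hoxb7 took the same course. Hoxa10 was the one gene of groups 10 to 13 to rise, from 15.3 and 19.7 CPM at D2 to 48.3 and 53.1 at D7 (log2 1.54 ± 0.16, adjusted p = 3.11e-10). Hoxd11 fell from 18.3 and 22.9 to 8.74 and 6.23 CPM (log2 -1.43 ± 0.23, adjusted p = 2.6e-06). Restricting the sums to regions inside the gene ended the calls of Hoxb2, Hoxc9, Hoxd9, Hoxb13 and Hoxc13 (adjusted p = 0.149, 0.254, 0.341, 0.144 and 0.0795).

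**Figure D4:**
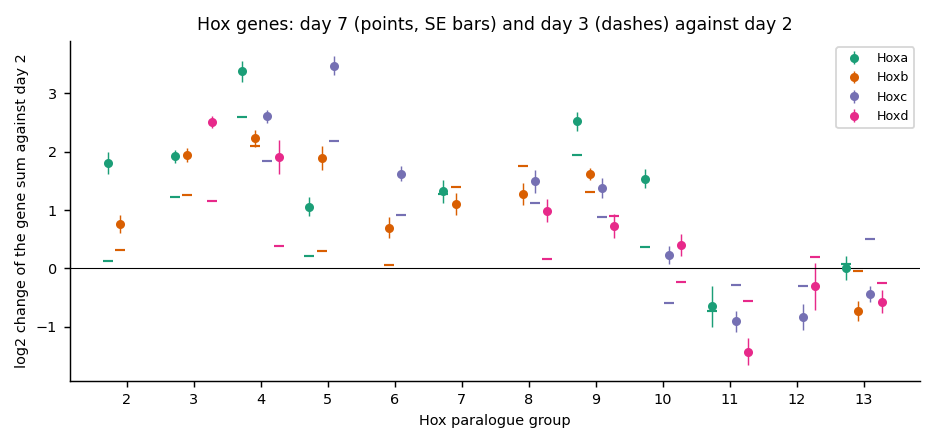
Log2 change of the gene sum against D2 (vertical axis) of tested Hox genes of groups 2 to 13 by paralogue group (horizontal axis) and cluster (colour); points with SE bars are D7 and dashes D3. Genes of groups 3 to 9 lie above 0 at D7, and most of groups 11 to 13 below.

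Genes of pluripotency and of the primed epiblast closed. Primed epiblast genes fell in 14 of 17 cases, with 1 higher and a median log2 change of -1.18, and naive pluripotency genes in 10 of 16, with 1 higher and a median of -0.54. Restricted to regions inside the gene, 6 of the naive genes fell. Pou5f1, which encodes Oct4, went from 50.0 and 51.4 CPM at D2 through 30.6 and 31.8 at D3 and 16.0 and 23.7 at D6 to 14.5 and 12.5 at D7 (log2 -1.90 ± 0.17, adjusted p = 1.15e-11). Its levels do not overlap between successive days, and the first 2 steps were called. Fgf4, a direct target of Oct4 and Sox2, fell more (log2 -2.28 ± 0.23, adjusted p = 1.81e-10), with 22.0 and 25.1 CPM at D2 and 4.93 and 4.71 at D7.

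Within these lists the steps differed. Fgf5, the classical marker of the primed epiblast, lost most at once: 69.9 and 80.4 CPM at D2, 31.7 and 30.7 at D3, 28.7 and 26.8 at D6, and 25 and 23.7 at D7 (log2 -1.62 ± 0.14, adjusted p = 1.89e-12). Lefty2, a feedback inhibitor of Nodal, kept 67.3 and 57.4 CPM at D3 of 60.2 and 68.8 at D2 before it reached 22.9 in both D6 libraries and 19.0 and 20.7 at D7 (log2 -1.71 ± 0.14, adjusted p = 2.72e-12). Zfp42, also known as Rex1 and a marker of naive cells, likewise fell from D3 to D6 only, from 74.2 and 86.1 to 33.2 and 33.5 CPM (log2 -1.06 ± 0.13 over the span, adjusted p = 1.3e-08). Klf2 fell from 111 and 110.0 CPM at D2 to 58.4 and 56.7 at D7 (log2 -0.94 ± 0.10), but not within its own span (-0.18, adjusted p = 0.289). The gain on the naive list was Sox2, which is also a neural gene, with 157 and 179 CPM at D2 and 214 and 275 at D7 (log2 0.54 ± 0.09, adjusted p = 1.04e-05). It stood at 160.0 and 168 CPM at D6, and only the last step was called. No member of this list was called higher under cyclic loess, within 10 kb or inside the gene. Sox2 falls outside the naming rule and was chosen after its values were seen, as were Cdx1, Fgf8, Nkx1-2, Evx1, T and most list members below that are given by a log2 change alone.

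Nodal pathway genes moved in both directions, as did all genes (29.5% higher and 22.8% lower). The ligand Nodal fell from 52.9 and 59.9 to 18.6 and 16.0 CPM (log2 -1.69 ± 0.15, adjusted p = 6.15e-12), Lefty1 and Lefty2 fell with it, and so did the co-receptor gene Tdgf1 (-1.04), the related ligand gene Gdf3 (-1.15) and Eomes (-0.99). Lefty1 (-1.64) did not pass within its own span (-0.37, adjusted p = 0.354). The transducers Smad2 (0.43) and Smad3 (0.74), the receptor gene Acvr1b (0.51), the corepressor gene Ski (0.64) and the ligand gene Gdf11 (0.31) rose. These are 5 higher and 7 lower of 17 tested, around a median of 0.08, and the higher count was 2 without replicate 1 of D2 and 3 with cyclic loess offsets. Gdf1 was not tested because no region was assigned to it.

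Caudal epiblast genes opened from D2 to D3, and many then lost part of the gain. Of 18 genes, 12 were higher and 2 lower at D7, with a median log2 change of 0.53, but from D2 to D3 13 rose (12.3% of all genes did) with a median of 0.94, and from D3 to D6 9 fell (10.8% of all genes) and 2 rose. The lower count was 1 with DESeq2, with cyclic loess offsets, with the 4 libraries of D2 and D7 alone, and without replicate 2 of D2 or either library of D7. Sp5, a Wnt-induced transcription factor, went from 36.2 and 43.6 CPM at D2 to 133 and 141 at D3, 102 and 113 at D6, and 115 and 110.0 at D7 (log2 1.5 ± 0.11, adjusted p = 3.66e-14). Cdx1, a caudal homeobox gene, had 12.3 and 11.3 CPM at D2, 40.9 and 44.5 at D3, 32.5 and 33.0 at D6, and 23.7 and 22.2 at D7 (log2 0.96 ± 0.17, adjusted p = 1.76e-05). In both, every day stood above D2, but the highest day was D3.

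Some genes of this list had come back to the start. Nkx1-2, a marker of neuromesodermal progenitors, measured 13.3 and 16.6 CPM at D2, 33.8 and 33.4 at D3, 23.8 and 21.8 at D6, and 15.7 and 17.2 at D7, and D7 overlapped D2 (log2 0.14 ± 0.18, adjusted p = 0.527). Evx1 did the same, with 26.3 and 29.7 CPM at D2, 55.2 and 52.5 at D3, and 26.8 and 25.1 at D7 (log2 -0.10 ± 0.15, adjusted p = 0.578). Fgf8 kept a smaller gain, from 13.6 and 19.2 CPM at D2 over 47.5 and 44.6 at D3 to 23.2 and 25.4 at D7 (log2 0.58 ± 0.17, adjusted p = 0.00482). T, the gene of Brachyury, differed from these, with 14.7 and 16.1 CPM at D2, 19.1 and 17.9 at D3, 33.2 and 27.3 at D6, and 38.7 and 42.7 at D7 (log2 1.40 ± 0.16, adjusted p = 4.35e-09). Its rise from D3 to D6 was called and those of the first and last steps were not. Hes3 rose from 42.4 and 51.4 CPM at D2 to 104 and 120.0 at D7, all of it after D3 (log2 1.25 ± 0.13, adjusted p = 5.82e-10). Wnt8a fell from 77.5 and 86.4 to 30.9 and 28.9 CPM (log2 -1.45 ± 0.13, adjusted p = 6.67e-12), mostly from D3 to D6.

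Genes that respond to Wnt signals rose in 10 of 19 cases and fell in 2, with a median log2 change of 0.45. Fzd10, a Wnt receptor, had 56.0 and 62.0 CPM at D2 and 164 and 183 at D3 and stayed at 154 to 193 thereafter (log2 1.61 ± 0.10, adjusted p = 4.8e-16). Axin2, a feedback inhibitor widely used as a Wnt reporter, rose in the same step and held, with 98.1 and 106 CPM at D2, 198 and 231 at D3, and 187 and 217 at D7 (log2 0.99 ± 0.10, adjusted p = 9.04e-11). Nkd1, another feedback inhibitor, also rose (log2 1.30 ± 0.12, adjusted p = 1.36e-11). The transcription factors Lef1 (log2 0.13) and Tcf7 (0.09) did not pass the test. Of the Fgf pathway, 3 of 16 rose and 5 fell, around a median of -0.02, and 3 fell without replicate 2 of D2, replicate 1 of D7 or replicate 2 of D7, or inside the gene. Under cyclic loess 8 fell, and 6 rose with the D2 and D7 libraries alone. Against these counts, 29.5% of all genes rose and 22.8% fell in the main fit. The ligand genes Fgf4 and Fgf5 were the largest losses of the Fgf list. Spry1, an inhibitor induced by Fgf signals, rose in every step, from 37.7 and 42.8 CPM at D2 to 67.3 and 70.7, 117 and 108, and 142 and 143 on the following days (log2 1.83 ± 0.10, adjusted p = 5.13e-17).

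Neural and retinoic acid genes opened late. Neural progenitor genes rose in 15 of 21 cases and fell in 3, with a median log2 change of 0.54, and 9 rose with sums restricted to regions inside the gene. From D2 to D3 only 3 of them rose and 3 fell, whereas 9 rose from D3 to D6, against 9.41% of all genes, and 10 from D6 to D7, against 3.61%. Pax3, a dorsal neural tube gene, measured 99.9 and 102 CPM at D2, 159 and 152 at D3, 210.0 and 188 at D6, and 299 and 328 at D7 (log2 1.63 ± 0.09, adjusted p = 1.26e-17). Each step was called and the days do not overlap. Pax7, its paralogue, had 93.8 and 116 CPM at D2, 97.6 and 101 at D3, 142 and 132 at D6, and 207 and 249 at D7 (log2 1.12 ± 0.10, adjusted p = 8.26e-12). Neurog2, a proneural gene, rose from 78.8 and 84.4 to 213 and 202 CPM (log2 1.35 ± 0.10, adjusted p = 2.18e-14). The ventral genes Nkx6-2 (log2 -1.11) and Nkx2-2 (-0.74) fell, and so did Sox1 (-0.24).

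Of 16 retinoic acid pathway genes, 10 rose and 2 fell, with a median log2 change of 0.56 (6 and 4 inside the gene). Aldh1a2, which makes retinoic acid, rose from 33.2 and 35.4 CPM at D2, through 41.9 and 37.3 at D3 and 51.6 and 48.3 at D6, to 68.9 and 83.8 at D7 (log2 1.15 ± 0.13, adjusted p = 1.61e-09). Rarb, a receptor gene induced by retinoic acid, had 178 and 174 CPM at D2, 198 and 182 at D3, 321 and 310.0 at D6, and 411 and 467 at D7 over 56 tested regions, of which 28 rose and 3 fell (log2 1.32 ± 0.08, adjusted p = 4.8e-16). Crabp1, a retinoic acid binding protein, rose from 24.3 and 24.4 to 81.1 and 86.2 CPM (log2 1.78 ± 0.13, adjusted p = 1.84e-14), in regions outside the gene, since the sum inside it did not pass (0.14, adjusted p = 0.673). Meis1, a Hox cofactor, rose from 179 and 165 to 358 and 398 CPM (log2 1.14 ± 0.08, adjusted p = 1.8e-14). The receptor gene Rarg (-0.80) and the degrading enzyme gene Cyp26c1 (-1.32) fell, while Cyp26a1 (1.00) rose. Labels state that the B27 supplement was used with or without vitamin A, the source of retinoic acid, and do not say which library had which, so a part of the supplement in these values was not tested.

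**Figure D5:**
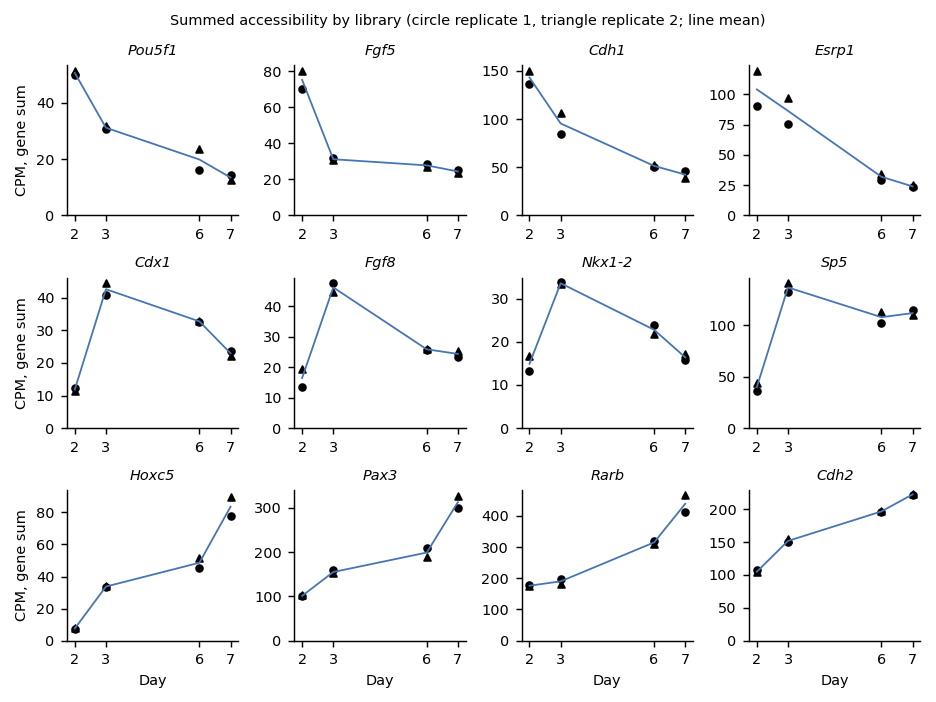
CPM of the gene sum (vertical axis, from 0) by day (horizontal axis) in each library (circles replicate 1, triangles replicate 2; line is the mean) for 12 genes. Fgf5 drops between D2 and D3, Nkx1-2 and Fgf8 peak at D3, and Pax3 and Rarb are highest at D7.

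Forebrain and midbrain genes fell in 9 of 13 cases and rose in 2, with a median log2 change of -0.47. The 2 that rose were Hesx1 (0.53) and En1 (0.59), and 1 did without replicate 1 of D2 or replicate 2 of D7. Otx2, which specifies the anterior head and marks the primed epiblast, fell from 98.6 and 99.9 CPM at D2 to 68.2 and 58.0 at D3, 49.0 and 48.4 at D6, and 41.8 and 44.6 at D7 (log2 -1.20 ± 0.12, adjusted p = 7.57e-11). Six3, a forebrain factor, fell from 43.4 and 59.3 to 22.7 and 23.3 CPM (log2 -1.15 ± 0.16, adjusted p = 2.2e-07). Presomitic mesoderm genes stayed near the shares of all genes, with 6 of 20 higher and 4 lower, against 29.5 and 22.8%. Their median was 0.06, the same as for all genes. Inside the gene, 3 of 19 were higher and 6 lower, with a median of -0.47 against 0.12 for all genes. Dll1, a Notch ligand, rose from 109 and 99.5 to 159 and 175 CPM, after 111 and 115 at D6 (log2 0.68 ± 0.10, adjusted p = 8.67e-07). Msgn1, a factor of the early presomitic mesoderm, did not pass (0.31, adjusted p = 0.181), and Tbx6, another, held under 1 CPM on both days. Meox1 rose (log2 0.95 ± 0.15), but fell when only regions inside the gene were summed (-0.60, adjusted p = 0.0391). Of the BMP pathway, 7 of 19 rose and 2 fell, against 29.5 and 22.8% of all genes. The median was 0.10, and 3 rose inside the gene. The 2 that fell were Smad9 (-0.63) and Chrd (-1.12), and 1 fell without replicate 2 of D2 or of D7, against 4 with library size only, and 5 under cyclic loess. Its risen members were the target genes Id1 (0.86), Id2 (0.59), Id3 (0.46) and Msx1 (0.93), the antagonist gene Nog (0.69), Smad5 (0.58) and Bmpr2 (0.36).

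Adhesion genes exchanged. Cdh1, the gene of E-cadherin, measured 136 and 150.0 CPM at D2, 84.4 and 106 at D3, 50.3 and 52.5 at D6, and 45.6 and 39.2 at D7 (log2 -1.74 ± 0.12, adjusted p = 2.78e-14). Cdh2, the gene of N-cadherin, rose over the same days from 107 and 104 to 150.0 and 155, 196 and 198, and 222 and 223 CPM (log2 1.08 ± 0.09, adjusted p = 1.62e-12). Esrp1, a splicing factor of epithelia, fell from 90.0 and 119 to 23.2 and 24.8 CPM (log2 -2.12 ± 0.14, adjusted p = 5.05e-15), and so did Cldn6, a tight junction gene that stands on the endoderm list, from 16.6 and 20.5 to 2.51 and 3.04 CPM in its single tested region (log2 -2.76 ± 0.28, adjusted p = 2.71e-10). Of the 13 genes of this list 6 rose, among them Vim (1.15), Zeb1 (0.80), Zeb2 (0.60) and Twist1 (0.80), and 5 fell. Snai1 (-0.15) and Snai2 (0.25), the factors best known for this switch, did not pass.

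Markers of other cell types moved as well, beside 29.5% of all genes higher and 22.8% lower. Of 14 genes of the feeder fibroblasts, 6 rose and 1 fell (median log2 0.41), and their summed level was 471.6 to 510.6 CPM at D2 and 611.6 to 641.6 at D7. None of them was at 0. Of 14 endoderm markers 3 rose and 5 fell (median -0.31; 8 fell with library size only), with 440.8 to 456.3 CPM at D2 and 524.9 to 538.8 at D7. Among the risen ones were Ttr, a serum carrier protein gene, from 6.8 and 6.21 to 57.5 and 58.7 CPM (log2 3.15 ± 0.17, adjusted p = 2.25e-17), and Cxcr4 (1.14), while of the defining factors Foxa2 fell (-0.33) and Sox17 did not pass (-0.23, adjusted p = 0.181). Of 12 lateral plate, heart and blood genes 1 rose and 7 fell (median -0.52), with 515.3 to 555 CPM at D2 and 433 to 440.4 at D7. Of 10 neural crest genes 4 rose and 4 fell (median 0.18), and of 8 germ cell genes none rose and 4 fell (median -0.41; 2 fell inside the gene). Of 18 housekeeping genes 10 rose and none fell (median 0.28), but 6 rose with library size only, and 3 under cyclic loess. The part of these cell types, and of the scaling, in the changes above was not tested.

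Outside the lists, the largest gene-level gains above the median abundance were at Gm11232 (log2 3.02 ± 0.18), Gm815 (2.97 ± 0.12), Slitrk6 (2.9 ± 0.17), Nin (2.84 ± 0.18) and Ct55 (2.77 ± 0.16). Slitrk6, a neuronal membrane protein gene, had 10.8 and 7.56 CPM at D2, 14.2 and 12.4 at D3, 38.2 and 32.5 at D6, and 70.9 and 68.1 at D7. Ct55, a cancer-testis gene on the X chromosome, reached its final level by D3, from 9.5 and 7.29 CPM at D2 to 55.0 and 54.8, and was at 56.0 and 60.2 at D7. The rise at Gm815 lay in regions 10 to 50 kb away, since the sum within 10 kb fell (-1.52, adjusted p = 0.000281). The largest losses were at 9230019H11Rik (-2.33 ± 0.16), Cyp2j12 (-2.28 ± 0.15), Vmn2r85 (-2.24 ± 0.15), Lrrn4 (-2.20 ± 0.14) and Ankrd35 (-2.10 ± 0.12). Ankrd35 holds the closing region given above and fell from 128 and 138 to 31.5 and 30.1 CPM in the sum. The loss at 9230019H11Rik did not pass within 10 kb (-0.60, adjusted p = 0.145), nor that at Cyp2j12 inside the gene (-0.60, adjusted p = 0.545).

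Counted by region instead, very long genes held the most changes, a choice made after the values were seen. This is a raw count, which grows with the number of regions tested in a gene. Of all tested regions, 22.0% were higher and 15.7% lower. Auts2, a neurodevelopmental gene of 1105.9 kb, had 50 higher and 11 lower of 110 tested regions, and Lrmda 45 higher and 1 lower of 65. Anks1b had the most closing regions, 23 of 68, with 9 higher.

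The authors' deposited tables of motifs cover the steps and not the whole span, and how their regions were chosen is not given in the sources used here. In the authors' deposited table for regions up from D2 to D3, the LEF1 motif stood in 42.12% of targets against 15.04% of background, and CDX4 in 44.47 against 17.36%. In the authors' deposited table for D3 to D6, Hoxc9 led with 30.07 against 8.8%, followed by PBX2 with 34.62 against 15.0% and by RFX factors. For D6 to D7 the authors' deposited table was led by SOX motifs, with Sox3 in 75.34 against 45.15%. For regions down from D2 to D3 and from D3 to D6, the authors' deposited tables were both led by the joint OCT4-SOX2-TCF-NANOG motif, with 21.6 against 2.68% and 16.82 against 2.59%.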

How the data were processed

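The submitters' processing notes name the mm10 build and list HOMER 4.10, MACS2 2.1.1.20160309, HISAT2 2.1.0, bedtools and SAMtools. How each tool was set, and whether the reads were shifted for the transposase, is not given in the sources used here. The deposited counts are whole read counts per merged region, 1 file per library. The deposited peak lists hold a position, a score, a fold enrichment (a ratio) and −log10 p and q values per peak, per the file headers and the format, and were called per library. Of these the −log10 q values entered only an alternative. The motif tables give the percent of target and background sequences and a score (log p) per motif, as the authors deposited them.

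The 10 peak lists were merged, with chromosomes in character order, and row n was taken as peak n of the count files. In this order no library had a count of 0 in any of its own peaks, against 1095 to 9931 under numeric order. Regions with low counts were removed with filterByExpr, which left 173175 of 246799. edgeR 4.0.16 (R 4.3.3) fitted all 10 libraries by group with TMM factors and the quasi-likelihood F test, and p was adjusted by Benjamini-Hochberg at 0.05. Per-step parts are the fitted log2 step divided by the whole log2 change. Each SE is the absolute log2 change divided by the square root of the test's F value. It thus rests on a spread shared across the 10 libraries and across features, and not on the 2 libraries of a day alone. Region counts were summed to the nearest protein-coding gene of the RefSeq table within 50 kb, or to the shortest gene that contains the region, which left 19037 genes. The naming rule took at most 4 called genes of each list, by smallest p, and every Hox gene. It also took the 5 largest changes per direction outside the lists, and 3 regions per direction and largest step. The text does not name every gene or region that the rule took, and it names other list members chosen after their values were seen. The members, the 21 lists and the tests were chosen with earlier results of these data known. Data were simulated for the 173175 tested regions with the same spread for every region. Only 200 regions were changed there, all drawn from those above the median abundance. The D7 against D2 test recovered 90% of 4-fold rises, 66% of 4-fold falls and 6% of 2-fold changes in either direction, with 1 false call. So few changed regions make the adjustment stricter than in the real data, and recovery among sparser regions was not simulated. Total counts per library ranged from 7150334 to 12335735. Alternatives were DESeq2 1.42.0, other scalings (limma 3.58.1 for cyclic loess) and filters, other gene windows, a replicate block, fewer libraries and held-out libraries. Replicate numbers were not taken to pair the libraries. In every group, however, replicate 2 had the smaller total count and the larger mitochondrial share. A few list members are counted in their lists and not reported here.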

Additional observations from a re-analysis of the deposited data

How the results depend on the processing

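The count of regions that differed between D7 and D2 stayed within 1.5 times of 65338 in every setting run, with 50936 under DESeq2 and 48321 to 68286 when 1 library was left out. The gene count was 7943 to 10307 when 1 library was left out. From D2 to D3, 13657 regions changed with DESeq2 and 14483 to 23672 with 1 library left out. From D3 to D6 these were 17048 and 14597 to 28954, and from D6 to D7 685 to 3198 with 1 library left out. The cause was not tested. Leaving out a library changes the low-count filter, whose smallest group is then 1 library.

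The middle part of the rise, 39.3%, was 42.2% with library size only, 40.6% with RLE factors, 41.4% with cyclic loess offsets, 40.8% with DESeq2, 38.0% with no filter on low counts, 39.8% with a stricter one, 41.2% without the Gdf11 libraries, 41.6% among changes of at least 2-fold, and 43.3 and 42.2% in held-out libraries. The last part of the rise was 7.7% with library size only. With library size only the middle and last parts of the fall were 33.4 and 28.7%. The first part of the fall was 40.9% with RLE factors, 41.1% with cyclic loess offsets, and 41.6 and 35.8% in held-out libraries, where the middle part was 40.4 and 40.0% and the last 15.9% in the set called without replicate 1. With 1 library left out, the 3 parts of the rise ranged over 41.5 to 54.2, 32.1 to 42.6 and 11.1 to 17.1%, and those of the fall over 30.5 to 41.7, 27.0 to 36.7 and 22.5 to 36.8%.

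Risen regions with no peak at D2 were 80.1% when a peak had to cover at least 50% of the region and 75.7% with peaks of −log10 q of at least 5, and fallen regions with no peak at D7 were 71.2 and 65.1%. Of 2176 alternative values for named genes, 2146 kept direction and call, 27 lost the call and 3 changed sign, which were Meox1 inside the gene (-0.60), Prdm14 within 10 kb (0.06, adjusted p = 0.822) and Gm815 within 10 kb (-1.52). All 324 values for the 18 named regions kept both.

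Deviations of same-numbered replicates correlated between -0.001 and 0.033 across groups, so the numbers were not taken to pair libraries. With few counts in many regions, such correlations cannot show whether same-numbered libraries were prepared as a set. With a replicate block, 65984 regions and 10742 genes differed between D7 and D2, and 64286 regions were called with and without it. From D6 to D7 the block gave 2701 regions. The block changed no call of a named gene or region, and moved the risen count of the Fgf pathway from 3 to 6, of the Hox groups 10 to 13 from 1 to 2, and of the germ cell markers from 0 to 1. A region not called is not shown to be stable.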
